A study of Rattus norvegicus with 13 samples.

Results

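Immediate-early transcription factors are described here by 10 genes, Fos, Fosb, Jun, Junb, Egr1, Egr2, Egr3, Atf3, Ier2 and Nr4a1, taken by name from the 28357 genes of the day 3 files. All 10 were found and all 10 passed the filter on low counts, among 14762 genes tested. The tissue was peripheral cornea with the adjoining limboscleral ring from wild-type male Lewis rats, 2 months old, whose corneas had been made deficient in limbal stem cells and were being invaded by vessels. Rats received spironolactone, an antagonist of the mineralocorticoid receptor, daily under the skin for 3 days at 25 mg/kg/day (3 libraries), or the vehicle of 90% olive oil and 10% DMSO (3 libraries). Both groups come from the same injury model, and no uninjured or untreated tissue was analysed here. The labels do not say that each library is a separate animal, and a p-value here reflects only how these libraries scatter, which may be technical.

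Immediate-early genes are transcribed from factors already present in the cell, within minutes of a growth factor, wound, stretch or stress signal, without new protein synthesis. Mitogen-activated protein kinases act on the serum response factor and its ternary complex partners, and on CREB, at the promoters of these genes, and the transcripts are short-lived. In cornea they are known as part of the first response of epithelium and keratocytes to wounding. The Fos, Jun and Atf3 proteins are leucine zipper factors that pair into AP-1 and related dimers. The Egr proteins are zinc finger factors, Nr4a1 is an orphan nuclear receptor, and Ier2 is a small nuclear early-response protein.

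Promoter windows from RefSeq (GRCr8 assembly, 250 bases before to 50 bases after the annotated start) were present for 6 of the 10 genes: Fosb, Junb, Egr1, Egr2, Ier2 and Nr4a1. Fos, Jun, Egr3 and Atf3 had no entry. The windows were searched on both strands for the CArG box bound by serum response factor, the cyclic AMP response element TGACGTCA, the AP-1 element TGANTCA and the related element TGCGTCA, the last added after the windows were seen. A match describes the letters only and shows no binding. The 3 windows below are shown because they carry 3 different elements and belong to genes with large, near-zero and large but variable differences, and the capitals mark the matched elements. They lie at chr20:21054392-21054691 (minus strand) for Egr2, chr19:40399123-40399422 (plus strand) for Ier2 and chr7:134259888-134260187 (plus strand) for Nr4a1.
Egr2: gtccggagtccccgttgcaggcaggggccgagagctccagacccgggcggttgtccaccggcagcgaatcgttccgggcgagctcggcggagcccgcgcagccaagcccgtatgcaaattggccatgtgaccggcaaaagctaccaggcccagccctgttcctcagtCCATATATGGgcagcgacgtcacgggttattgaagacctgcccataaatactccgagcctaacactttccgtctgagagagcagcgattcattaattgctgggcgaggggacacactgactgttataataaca
Ier2: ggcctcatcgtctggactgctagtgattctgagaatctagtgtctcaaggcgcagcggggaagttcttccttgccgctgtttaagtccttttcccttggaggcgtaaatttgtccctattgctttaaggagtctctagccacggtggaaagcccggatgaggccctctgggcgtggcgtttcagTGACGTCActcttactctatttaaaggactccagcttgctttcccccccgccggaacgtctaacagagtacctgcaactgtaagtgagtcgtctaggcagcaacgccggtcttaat
Nr4a1: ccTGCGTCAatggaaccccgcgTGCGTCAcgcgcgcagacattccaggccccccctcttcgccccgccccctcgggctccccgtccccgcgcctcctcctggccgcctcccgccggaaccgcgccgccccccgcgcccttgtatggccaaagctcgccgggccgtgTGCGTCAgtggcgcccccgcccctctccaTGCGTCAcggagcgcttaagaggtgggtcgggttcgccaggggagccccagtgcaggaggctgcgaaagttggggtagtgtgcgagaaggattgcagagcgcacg
The Egr2 window held 1 CArG box, from base -83 to base -74 relative to the annotated start. The Egr1 window held a CArG box at the same distance, from -83 to -74, and another from -105 to -96. Among 33465 promoter windows of this length, 1.64% held a CArG box. The Ier2 window held 1 TGACGTCA element from -66 to -59, a sequence found in 1.83% of windows. The Nr4a1 window held TGCGTCA at 4 places, and 1.9% of windows held it at all. TGANTCA, present in 7.33% of windows, was in none of the 6, and the Fosb and Junb windows held none of the searched elements.

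At day 3, transcripts of 9 of the 10 genes had a negative log2 fold change with spironolactone, and none passed the test. Fos, Egr2, Egr3 and Atf3 were lower in all 3 spironolactone libraries than in the lowest vehicle library, by 36.7% to 51.1% in the fitted values. Nr4a1 had a fitted level 50.2% lower but overlapped between groups. The more abundant Jun, Junb and Egr1 differed by 8.3% to 12.1%, and Ier2 by 0.54%. Quasi-likelihood tests in edgeR with Benjamini-Hochberg adjustment called 0 of the 10 at an adjusted p of 0.05, where 0% of all genes tested were called. At an unadjusted p under 0.05, 4 of the 10 were lower (Atf3, Egr2, Egr3 and Fos), against 10.4% of all genes. DESeq2 called Fos, Egr2 and Atf3 lower, 3 of the 10, against 3.41% of the genes it gave an adjusted p, and limma-voom called none. Groups did not overlap, with spironolactone lower, for 4 of the 10 genes and for 16.1% of all genes. The median log2 fold change over the 10 genes was -0.56, and over all genes tested it was -0.01. The genes were chosen with earlier results of these libraries known, so these shares are descriptions of the list.

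**Figure D1:**
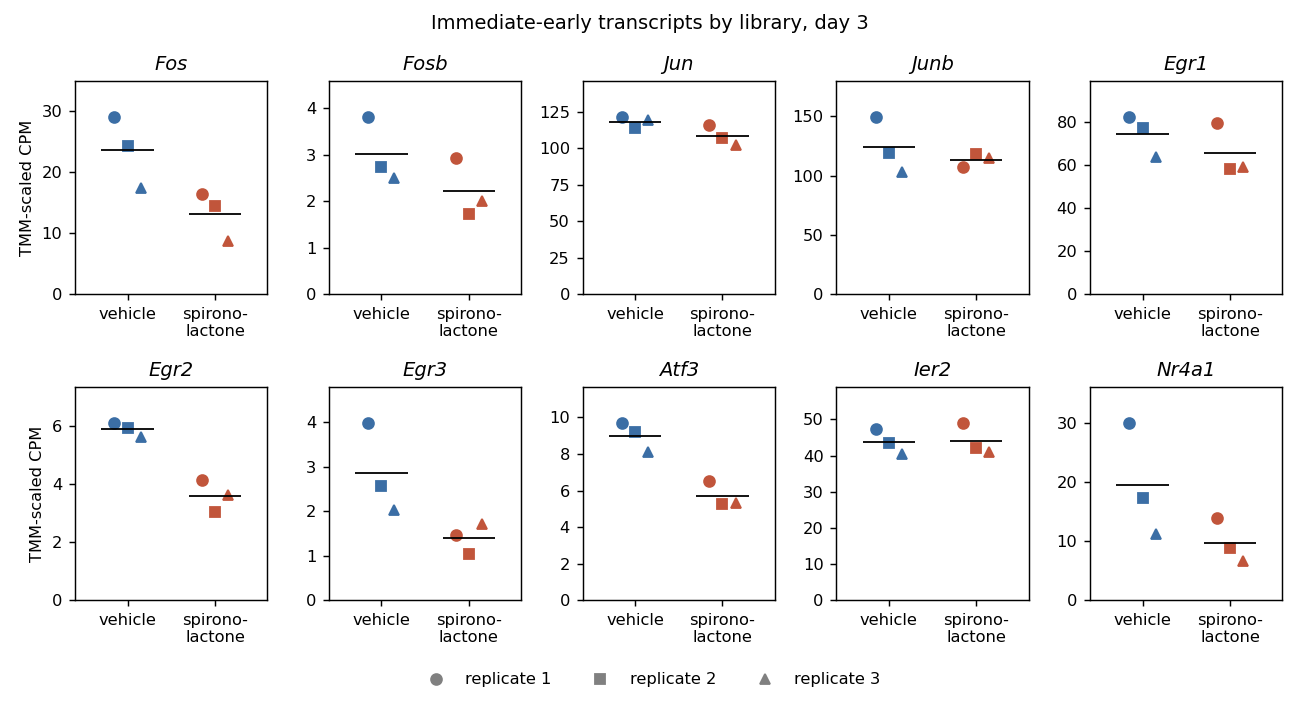
Counts scaled to library size by TMM (CPM) of each gene in the 3 vehicle (blue) and 3 spironolactone (red) libraries at day 3; markers give the replicate number and lines the group means. Vehicle replicate 1 is the highest library for 9 of the 10 genes, and the groups are separate for Fos, Egr2, Egr3 and Atf3.

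Several tissue markers differed between the same libraries, and their part in the differences above was not tested. All 11 tested skeletal muscle markers were lower in every spironolactone library, with summed levels of 142 to 272 CPM against 479 to 1118 CPM with vehicle. Corneal and limbal epithelial markers had positive log2 fold changes in 13 of 13, with sums of 15509 to 18155 CPM against 8987 to 12371 CPM. Krt5, Krt14 and Krt15 were the largest parts of these epithelial sums. Their means were 6555, 4663 and 2644 CPM with spironolactone and 3563, 2702 and 1768 CPM with vehicle. Krt12, the defining corneal keratin, was at 7.8 to 12.2 CPM over the 6 libraries, and its groups overlapped. Macrophage markers were negative in 10 of 10 (1275 to 1703 CPM against 1551 to 1963 CPM), blood endothelial markers in 10 of 10 (400 to 520 CPM against 536 to 725 CPM) and neutrophil markers in 6 of 6 tested (83.6 to 183 CPM against 102 to 255 CPM). Most of the neutrophil sum was Lcn2, at 157, 75.6 and 65.7 CPM with spironolactone and 132, 221 and 74.5 CPM with vehicle. Of the 6 neutrophil markers, 3 were lower in every spironolactone library. Stromal markers were negative in 5 of 8, with overlapping sums of 9530 to 10034 CPM and 9698 to 11199 CPM. Photoreceptor markers were negative in 9 of 9, each below its lowest vehicle value in all 3 treated libraries, with sums of 2948, 3760 and 207 CPM in spironolactone replicates 1, 2 and 3 against 4419 to 4909 CPM with vehicle. Of these 9, edgeR gave 0 an unadjusted p under 0.05, and DESeq2 called 0. Over all genes tested, 16.1% were lower in every spironolactone library. No matched marker of these lists was at 0 in all libraries; the neutrophil markers Ngp, Camp and Retnlg were too low to test. Mitochondrial transcripts took 4.17% to 4.85% of counts with spironolactone and 5.13% to 5.48% with vehicle. In such bulk tissue, fewer cells of a type and less RNA per cell cannot be told apart.

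Fos encodes the short-lived AP-1 subunit that needs a Jun partner to bind DNA. Its level was 16.3, 14.5 and 8.7 CPM in spironolactone replicates 1, 2 and 3 and 29.1, 24.3 and 17.4 CPM in vehicle replicates 1, 2 and 3. The groups were separate, but narrowly, between spironolactone replicate 1 and vehicle replicate 3. The means were 13.2 ± 3.99 CPM (SD, n = 3) and 23.6 ± 5.87 CPM (SD, n = 3), a log2 fold change of -0.84 (SE 0.28) with an adjusted p = 0.158 from edgeR. These values rest on 174 to 701 estimated counts per library, and counting alone would give an SD near 0.804 CPM in the treated and 1 CPM in the vehicle group. Without the replicates 3 of both treatments, edgeR gave a log2 fold change of -0.79 with an adjusted p = 0.0223. In that fit edgeR called 1040 of 14817 genes tested. DESeq2 on all 6 libraries gave an adjusted p = 0.022. Over all alternatives the adjusted p of Fos ran from 0.022 to 0.384, and every estimate was negative.

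Fosb, a Fos paralogue that is usually scarce in unstimulated tissue, was near the lower end of the measured levels. It had 2.93, 1.73 and 2.00 CPM in the spironolactone libraries and 3.82, 2.73 and 2.49 CPM in the vehicle libraries, on 40 to 92 counts per library. Spironolactone replicate 1 lay above vehicle replicates 2 and 3, so the groups overlapped. Its fitted log2 fold change was -0.45 (SE 0.27), with an adjusted p = 0.352 from edgeR. It was -0.24 without vehicle replicate 1, -0.29 without spironolactone replicate 2 and -0.69 without spironolactone replicate 1.

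Jun and Junb, the partners of the Fos proteins, had small fitted differences. Jun, which can also form homodimers, had 116, 107 and 102 CPM in the spironolactone libraries and 122, 114 and 119 CPM in the vehicle libraries. Spironolactone replicate 1 was above vehicle replicate 2, and the log2 fold change was -0.12 (SE 0.063, adjusted p = 0.288 from edgeR). Without spironolactone replicate 3 it was -0.08. On the TPM scale the Jun groups did not overlap, at 50.7 to 58.2 TPM and 59.7 to 64.2 TPM. That scale also moved the median log2 fold change over all genes tested, to -0.06 on log2(TPM + 1) from -0.01 in the main fit. Junb, a weaker activator that can antagonise Jun, had 107, 118 and 115 CPM in the spironolactone libraries and 150, 119 and 103 CPM in the vehicle libraries. A single library, vehicle replicate 1, was above all others, while vehicle replicate 3 was the lowest of the 6. For Junb the fitted log2 fold change was -0.13 (SE 0.13, adjusted p = 0.586 from edgeR), which without vehicle replicate 1 was 0.04.

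Atf3, a stress-induced factor of the ATF and CREB group that often acts as a repressor, had the smallest unadjusted p of the 10 genes. By p from edgeR it ranked 340 among the 14762 genes tested. Its level was 6.54, 5.28 and 5.30 CPM in the spironolactone libraries and 9.71, 9.18 and 8.09 CPM in the vehicle libraries. Both groups were tight, and the highest spironolactone value was below the lowest vehicle value. The means were 5.71 ± 0.72 CPM (SD, n = 3) and 8.99 ± 0.823 CPM (SD, n = 3), and the SDs were close to those that counting alone gives, 0.531 and 0.62 CPM. In the fit Atf3 had a log2 fold change of -0.66 (SE 0.13) with an adjusted p = 0.0747 from edgeR. It passed without vehicle replicate 3 (adjusted p = 0.0489) and in DESeq2 (adjusted p = 0.0115), within a range up to 0.263 over the alternatives. Without vehicle replicate 3, edgeR called 781 of 14827 genes tested.

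Among the Egr genes the scarce members differed most. Egr2, a zinc finger factor also needed for myelination by Schwann cells, had 4.11, 3.02 and 3.60 CPM in the spironolactone libraries and 6.10, 5.91 and 5.61 CPM in the vehicle libraries. The vehicle libraries were almost level and all 3 spironolactone libraries were below them. The log2 fold change was -0.72 (SE 0.15) with an adjusted p = 0.0747 from edgeR and 0.0228 from DESeq2, within a range up to 0.264 over the alternatives. By p from edgeR Egr2 ranked 430 among the 14762 genes tested. Each library held 72 to 147 counts of Egr2. Egr3, which shares its DNA recognition with the other Egr proteins, had 1.47, 1.05 and 1.70 CPM in the spironolactone libraries and 3.98, 2.55 and 2.02 CPM in the vehicle libraries. The groups were separate, with vehicle replicate 1 far above the rest. For Egr3 the fitted log2 fold change was -1.03 (SE 0.32, adjusted p = 0.13 from edgeR), from 26 to 96 counts per library, and -0.70 without vehicle replicate 1.

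Egr1, the most abundant Egr transcript and a classical target of serum response factor, had 79.3, 58.0 and 59.2 CPM in the spironolactone libraries and 82.5, 77.2 and 63.6 CPM in the vehicle libraries. Spironolactone replicate 1 was above vehicle replicates 2 and 3, so the groups overlapped. The log2 fold change was -0.19 (SE 0.15, adjusted p = 0.48 from edgeR). With 1 library left out it ran from -0.34 (without spironolactone replicate 1) to -0.10 (without vehicle replicate 1 or spironolactone replicate 2), with -0.12 without spironolactone replicate 3. Egr1 and Egr2 had the same CArG box position in the windows printed or described above and fitted differences of -0.19 and -0.72; the difference between these genes was not tested.

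Nr4a1, also called Nur77, varied most between libraries. It had 13.9, 8.82 and 6.60 CPM in the spironolactone libraries and 30.0, 17.3 and 11.3 CPM in the vehicle libraries. Within the vehicle group the highest library was 2.66 times the lowest, and within the spironolactone group 2.1 times. Spironolactone replicate 1 lay above vehicle replicate 3. The log2 fold change was -1.01 (SE 0.44, adjusted p = 0.243 from edgeR), and without vehicle replicate 1 it was -0.55. DESeq2 gave an adjusted p = 0.0625.

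Ier2 had almost equal group means. Its values were 49.1, 42.2 and 40.9 CPM in the spironolactone libraries and 47.5, 43.5 and 40.3 CPM in the vehicle libraries. The fitted log2 fold change was 0.01 (SE 0.093, adjusted p = 0.969 from edgeR). Its sign was negative on the TPM scale (-0.05) and without spironolactone replicate 1 (-0.08) or vehicle replicate 3 (-0.03). The median over all genes tested was about as negative on log2(TPM + 1), at -0.06.

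**Figure D2:**
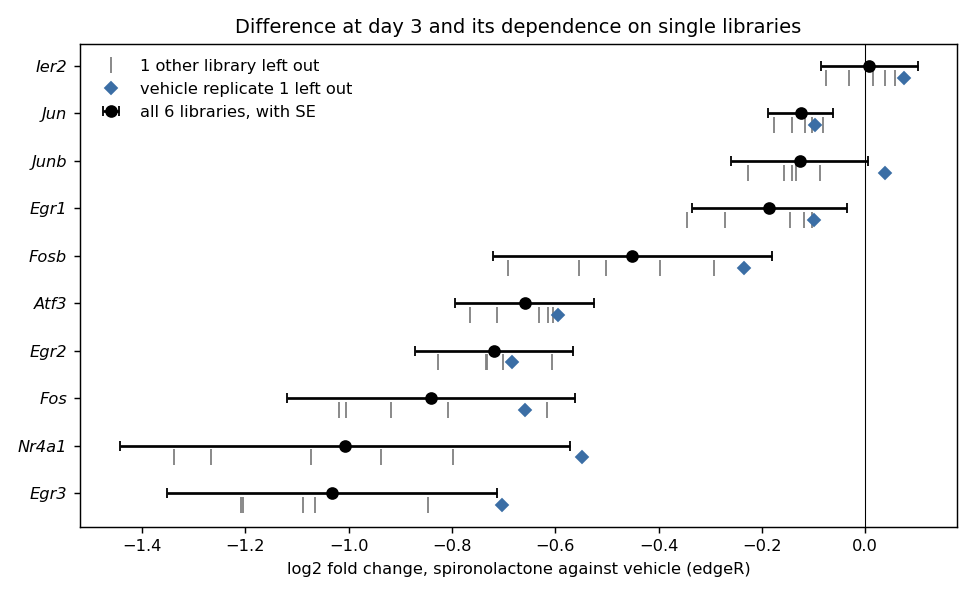
The log2 fold change of each gene (black, with its SE from edgeR) and the same fit with 1 library left out (ticks; diamonds for vehicle replicate 1). The estimates for Fos, Egr2, Egr3, Atf3 and Nr4a1 stay below -0.5 in each of these fits, while Junb and Ier2 cross 0.

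Libraries also differed within groups, and the 10 genes shared that pattern. Vehicle replicate 1 was the highest of the 3 vehicle libraries for all 10 genes, and the highest of all 6 for 9, the exception being Ier2. Over all genes tested, 16.9% were highest in vehicle replicate 1. The same library was highest for 8 of 10 macrophage markers, 6 of 9 photoreceptor markers, 8 of 12 other AP-1 family genes and 9 of 14 other immediate-early factors, so the pattern was not limited to the 10 genes; the part of macrophages in it was not tested. Vehicle replicate 1 was highest for 1 of 10 blood endothelial and 2 of 6 neutrophil markers. It was highest for 0 of the tested muscle, epithelial and stromal markers. Vehicle replicate 3 was the lowest vehicle library for 9 of the 10, Jun being the exception. Among spironolactone libraries, replicate 1 was highest for 8 of the 10. The shares of all genes with these orders of vehicle replicate 3 and spironolactone replicate 1 were not computed. After centring each gene on its mean over the 6 libraries, the median over the 10 genes was 0.42 and 0.26 in vehicle replicates 1 and 2 on the log2 scale. It was -0.34 and -0.28 in spironolactone replicates 2 and 3. Vehicle replicate 3, at -0.0026, and spironolactone replicate 1, at -0.0152, were almost level, and the separation of the 2 groups in this median rests on that small gap. Leaving out spironolactone replicate 1 raised the number of genes whose groups did not overlap from 4 to 8. Fewer libraries make separation easier, and the share of all genes separated without that library was not computed.

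**Figure D3:**
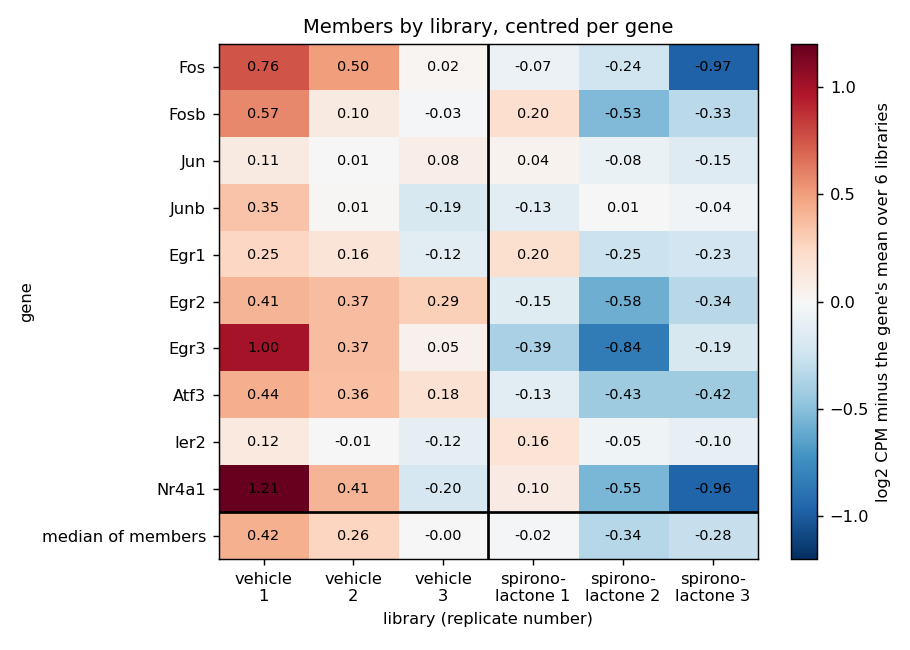
Log2 CPM of each gene minus its mean over the 6 libraries, with the median over the 10 genes in the bottom row; columns are libraries, vehicle on the left. Vehicle replicate 1 has the highest median, 0.42, and vehicle replicate 3 and spironolactone replicate 1 have nearly equal medians.

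The 10 genes tended to vary together over the 6 libraries. Pearson's r of log2 CPM over the 6 libraries was positive for all 45 pairs, with a median of 0.771, a lowest value of 0.211 (Egr2 with Ier2) and a highest of 0.975 (Egr2 with Atf3). After the group means were removed all 45 remained positive, with a median of 0.667 and a range of 0.0113 to 0.999. Values near 0 were those of Junb with Egr2 (0.0113) and Jun with Junb (0.0138). These values describe 6 libraries and share the same scaling factors. The 5 other genes most like the mean of the 10 over the 6 libraries were AABR07009834.1 (r = 0.998), Il6r (0.997), Angptl4 (0.997), Medag (0.993) and Cyr61 (0.992), the last being the older symbol of Ccn1. Angptl4, an inhibitor of lipoprotein lipase, had 19.1, 11.04 and 9.65 CPM in the treated libraries and 43.7, 29.4 and 18.4 CPM in the vehicle libraries. Of 14752 genes compared, 8 had an r above 0.99, 131 an r above 0.95 and 436 an r above 0.9.

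On the length-normalised TPM scale the order of levels with vehicle was Junb (118 ± 23.8 TPM), Jun (61.8 ± 2.25), Ier2 (51.7 ± 4.81), Egr1 (38.4 ± 5.42), Fos (25.5 ± 6.62), Nr4a1 (13.3 ± 6.45), Atf3 (8.01 ± 0.844), Egr2 (2.93 ± 0.153), Egr3 (2.45 ± 1.01) and Fosb (1.39 ± 0.348), each as mean ± SD with n = 3. The order with spironolactone was the same. In the vehicle group the ranges overlapped between Fos and Nr4a1, Nr4a1 and Atf3, Egr2 and Egr3, and Egr3 and Fosb. In the spironolactone group Jun and Ier2 also overlapped, and Fos and Nr4a1 no longer did. Junb, Jun, Ier2 and Egr1 were above 10 TPM in every library, and these are the 4 genes with the smallest fitted differences.

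Family make-up followed from these levels. Fos was 47.5% ± 2.92 (SD, n = 3) of the TPM of the Fos family with vehicle and 36.8% ± 5.11 (SD, n = 3) with spironolactone. The Fos share was 36.3%, 42.2% and 32.0% in the spironolactone libraries and 45.2%, 50.8% and 46.5% in the vehicle libraries, without overlap. Fosl2, which encodes the Fra-2 protein, had 13.1 ± 2.07 TPM with spironolactone and 13.3 ± 3.2 TPM with vehicle, and its share was 36.2% against 25%. Fosl1, which encodes Fra-1, had 9.03 ± 3.69 TPM and 13.7 ± 5.34 TPM. In the Jun family the share of Junb was 46.1% against 45.4% and that of Jun 24.3% against 24.1%. Egr1 made up 91.7% ± 1.53 (SD, n = 3) of the Egr family with spironolactone and 87.7% ± 1.15 (SD, n = 3) with vehicle, again without overlap, and Egr4 was at or near 0 TPM. In the Nr4a family, Nr4a2 had 4.36 ± 0.433 TPM with spironolactone and 6.01 ± 1.17 TPM with vehicle, and Nr4a3 2.47 ± 0.0351 TPM and 2.77 ± 0.191 TPM. These shares come from the same libraries as the fold changes and were not tested.

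**Figure D4:**
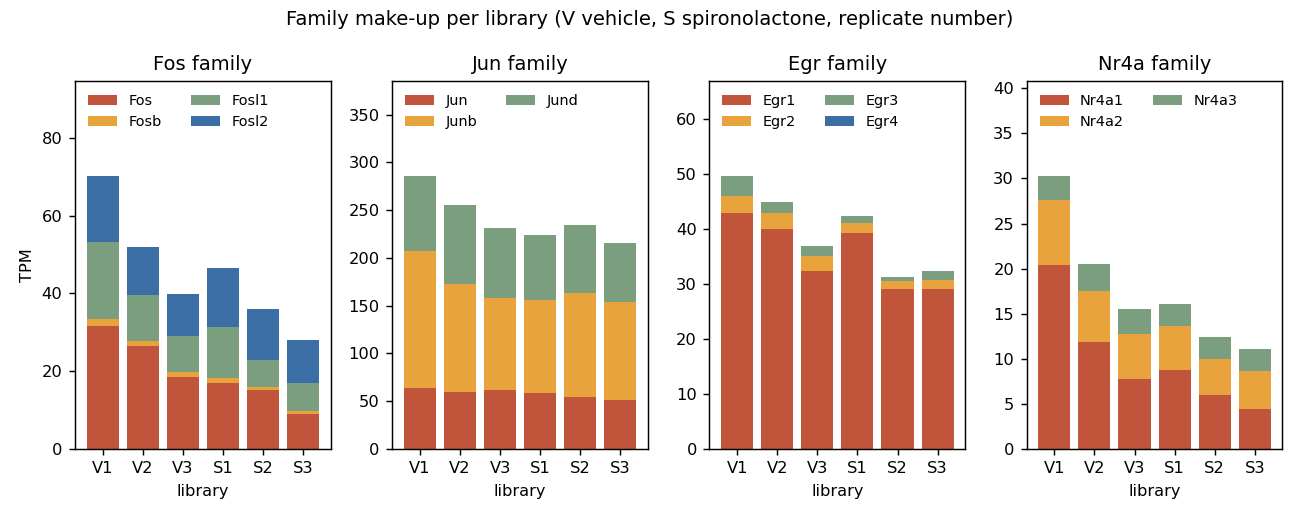
Stacked TPM of the Fos, Jun, Egr and Nr4a families in each library (V vehicle, S spironolactone, with the replicate number). The Fos segment ranges from 8.93 to 16.9 TPM with spironolactone and from 18.5 to 31.7 TPM with vehicle, while the Fosl2 segment spans 11 to 15.1 TPM and 10.7 to 16.9 TPM.

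The other genes of the pathway were read from 5 lists, and edgeR called none of their members at an adjusted p of 0.05. Counts at an unadjusted p under 0.05 stand against 10.4% of all genes tested lower and 12.2% higher, and DESeq2 calls against 3.41% lower and 5.74% higher. Of 12 tested genes of the wider AP-1 family, 8 were negative and 4 positive, and the median log2 fold change was -0.11. At an unadjusted p under 0.05, 2 were lower, Maff at -0.80 (SE 0.25) and Jund at -0.17 (SE 0.068), or 16.7% of the list. DESeq2 called Maff lower (adjusted p = 0.0367). Maff encodes a small Maf protein that lacks an activation domain, and its level was 7.13 ± 1.63 CPM in treated tissue and 12.3 ± 3.38 CPM in vehicle tissue (SD, n = 3). Mafk and Batf3, next by p, had -0.16 and -0.56.

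Of 14 other tested immediate-early factors, 9 were negative and 5 positive, with a median of -0.09, and at an unadjusted p under 0.05 2 were higher and 4 lower, or 14.3% and 28.6% of the list. DESeq2 called Klf4 higher (adjusted p = 1.1e-04) and Nfil3 lower (adjusted p = 9.4e-04). Klf4, a Krüppel-like factor of differentiating epithelium, was among the higher ones, at 236 ± 12 CPM against 186 ± 8.79 CPM with vehicle (log2 fold change 0.35, adjusted p = 0.0649 from edgeR). Nfil3, a leucine zipper repressor, was lower in every spironolactone library, at 9.43 ± 0.458 CPM against 16 ± 2.86 CPM (log2 fold change -0.77, adjusted p = 0.0678 from edgeR). Klf2, known from endothelium under flow, had -0.46 and Nr4a2, the paralogue of Nr4a1, had -0.41. Between the groups, epithelial marker sums were higher with spironolactone, as was Klf4, and endothelial sums were lower, as was Klf2. The part of these tissues in the Klf4 and Klf2 differences was not tested.

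Genes that restrain the early response, such as phosphatases and RNA decay factors, were negative in 18 of 23 tested, with a median of -0.26. At an unadjusted p under 0.05, 9 were lower and 2 higher, or 39.1% and 8.7% of the list, and DESeq2 called Errfi1 (adjusted p = 0.0169) and Btg2 (adjusted p = 0.0465) lower and Zfp36l1 higher (adjusted p = 0.0077), Btg2 being named after its values were seen. Zfp36l1, an RNA decay factor, had 377 ± 14.1 CPM against 326 ± 8.71 CPM with vehicle (log2 fold change 0.21). Dusp4, a phosphatase of MAP kinases, had -0.30, Gadd45b -0.40 and Errfi1, a feedback inhibitor of the EGF receptor, -0.66. For 69.6% of these genes vehicle replicate 1 was the highest library.

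Upstream kinases and factors showed small differences in both directions: 9 of 16 tested had positive values and the median was 0.06. At an unadjusted p under 0.05, 5 were higher and 2 lower, or 31.2% and 12.5% of the list, and DESeq2 called 0. The genes with the smallest p were Mapk3 (0.15), Mapk14 (0.17) and Map2k1 (0.14), which encode ERK1, p38 alpha and MEK1, and Mapk8, which encodes JNK1, at -0.35. Vehicle replicate 1 was the highest library for 18.8% of these genes. The transcript level of a kinase does not report its activity.

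Early-response effectors and targets were negative in 19 of 26, with a median of -0.36. At an unadjusted p under 0.05, 9 were lower and 1 higher, or 34.6% and 3.85% of the list, and DESeq2 called 6 lower, 23.1%, and 0 higher. Ccn1, a secreted matrix protein gene induced through serum response factor and YAP, had 46.1 ± 8.52 CPM against 85.1 ± 22.4 CPM with vehicle (SD, n = 3; log2 fold change -0.89). Rhob, which encodes a small GTPase, had -0.41, and the higher gene, Sphk1, which encodes a sphingosine kinase, 0.33.

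**Figure D5:**
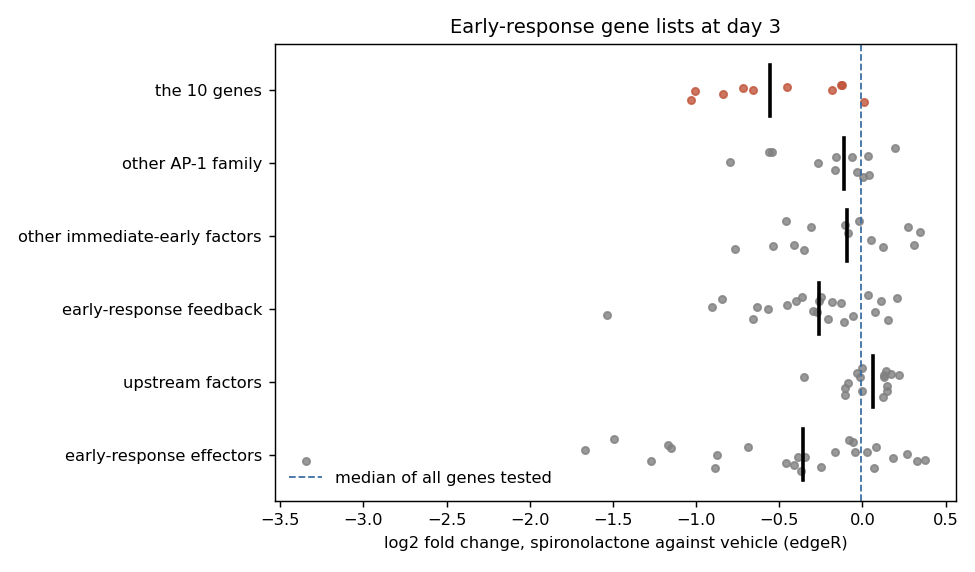
Log2 fold changes of the tested genes of each list (points, spread vertically for legibility), with the median of each list as a black line and the median of all genes tested as a dashed line. Of these 6 lists the 10 genes have the lowest median, -0.56, and the upstream factors lie around 0.06.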

How the data were processed

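RNA was sequenced from 13 libraries, of which the 6 of day 3 (3 per treatment, grouped by title) were used. The 7 day 7 libraries were not used, because their files give gene IDs that no table used here pairs with names. Per the file headers, the authors deposited expected counts, which need not be whole, and TPM values per gene. The submitters' processing notes name RSEM 1.2.28, STAR 2.5.3a, edgeR 3.28.0, DESeq2 1.26.0, DRAGEN, Picard, fastp and FastQC and the builds rn6 and Rnor_6.0, without roles. Totals were 18.2 to 25.3 M estimated counts per library. A row that names no gene (0.12% to 0.181% of counts) was left out. Chi-square per gene between libraries of a group was 7.9 to 23.2, so no pair agreed within sampling noise.

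Counts were rounded, filtered with edgeR's expression filter (minimum count 10), scaled by TMM and tested with edgeR 4.0.16 in R 4.3.3 (quasi-likelihood, robust, Benjamini-Hochberg at 0.05 over all genes). SE is the log2 fold change over the square root of F. CPM are TMM-scaled; log2 CPM used a prior count of 2. DESeq2 1.42.0, limma 3.58.1, scalings, filters, effective lengths, log2(TPM + 1), log2(TPM + 0.1), the replicate block and left-out libraries were alternatives. The tests were checked on counts simulated independently for each gene and library. That check does not cover patterns that genes share within a library. The genes, lists and tests were chosen with earlier results of these data known. Named genes are the 10, the 4 of each list with the smallest p and the 5 with the highest r to the mean of the 10; marker genes and paralogues of the 10 were added for the marker sums and family shares. One gene that this rule names is not reported here. No source used here states a strand setting for the counting, and paralogues may share reads.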

Additional observations from a re-analysis of the deposited data

How the results depend on the processing

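The median log2 fold change of the 10 genes stayed negative in all 16 alternatives, from -0.73 without spironolactone replicate 1 to -0.39 without vehicle replicate 1. Of the genes, 0 were called with all libraries by edgeR and 3 by DESeq2; leaving out 1 library gave 0 to 1 (Atf3, without vehicle replicate 3), and leaving out spironolactone 3 and vehicle 3 together gave 1 (Fos). Over all genes, edgeR called 0, DESeq2 1330, edgeR with no filter 148, and edgeR without both replicates 3 called 1040; with 1 library left out it called 0 to 781 (781 without vehicle replicate 3, 40 without vehicle replicate 1, 2 without spironolactone replicate 3). The cause was not tested. The number of the 10 lower in every spironolactone library, an alternative chosen after seeing the data, was 4 to 8 with 1 library left out and 5 on TPM. Fewer libraries make separation easier, and the matching shares of all genes were not computed. The sign reversed for Ier2 (-0.0524 and -0.0533 on log2(TPM + 1) and log2(TPM + 0.1), -0.0757 to 0.0758 with 1 library left out, negative without spironolactone replicate 1 or vehicle replicate 3) and for Junb (-0.227 to 0.0382 with 1 library left out, positive without vehicle replicate 1). On log2(TPM + 1) and log2(TPM + 0.1) the median over all genes tested was -0.0599 and -0.0676, against -0.0073 in the main fit. Over all genes tested, deviations of same-numbered libraries of the 2 treatments had r of 0.0898, -0.0845 and 0.0486. These values cannot decide whether the numbers pair the libraries for the 10 genes. With the replicate block edgeR called 0 genes and 0 of the 10, with a median of -0.55. The block lowered the SE of Fos to 0.088 and of Nr4a1 to 0.103, each with an adjusted p = 0.0809 from edgeR. For Atf3 and Egr2 the adjusted p from edgeR rose with the block, to 0.0984 and 0.117. Depth limits Egr3 and Fosb most, at 26 to 96 counts per library. The day 7 alternatives were not run.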
